A study of Mus musculus with 6 samples.

Results

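The 47 genes described here encode the machinery that fills, docks, primes, fuses and retrieves synaptic vesicles. They comprise vesicular glutamate transporters, synapsins, other vesicle membrane proteins, SNAREs and the factors that take SNAREs apart, Rab3 proteins with their effectors, active zone scaffolds, and endocytic proteins. The members were chosen by symbol from a list of such genes that leaves out the synaptotagmins and complexins. All 47 were found among the 55471 genes of the count table, of which 32943 had at least 1 count. All 47 also passed the low-count filter that left 16562 genes for testing, with a mean of 468 to 42878 counts per library.

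Messenger RNA was sequenced from primary neurons of CD1 mouse embryonic cortex, dissected at or shortly before embryonic day 15, in 3 shControl and 3 shOpa1 libraries. Every culture was kept in neurobasal medium with B27 and N2 supplements, received the mitotic inhibitor cytosine arabinoside at 2 uM, was transduced with lentivirus on day 6 and was collected on day 11. The shControl libraries (genotype given as WT) carried a control short hairpin RNA. The shOpa1 libraries (genotype given as Opa1 knock-down) carried a hairpin against Opa1, a dynamin-like GTPase of the inner mitochondrial membrane that is needed for mitochondria to fuse. The hairpin sequences and the cell type specificity of the lentiviral promoter are not given in the sources used here. The replicates are called biological, but nothing says whether they came from separate cultures, litters or days, so a p-value here reflects only how far these libraries spread, which may be technical. Levels are given as CPM, counts scaled to the library total over the tested genes after its TMM factor. Opa1 itself measured 202, 205 and 202 CPM in shControl replicates 1, 2 and 3, and 10.2, 8.64 and 8.50 CPM in shOpa1 replicates 1, 2 and 3. This is a 22.3-fold fall (log2 fold change -4.48 ± 0.09 standard error, adjusted p = 2.09e-06, edgeR quasi-likelihood test with Benjamini-Hochberg adjustment). Libraries held 24676709 to 32961580 counts, and the 47 genes together took 1.45% to 1.53% of them in shControl and 1.49% to 1.50% in shOpa1.

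At a synapse, vesicles are filled with transmitter by proton-driven transporters, held in clusters by synapsins, and brought to the active zone through Rab3 and the RIM, RIM-BP, Bassoon, Piccolo, ELKS and liprin scaffolds. Munc13 proteins then prime them, and the pairing of the vesicle SNARE synaptobrevin with syntaxin and SNAP-25 on the plasma membrane drives fusion. After fusion, NSF and the SNAP adaptors separate the SNAREs, and clathrin adaptors, dynamin, amphiphysin, endophilin and synaptojanin retrieve the membrane. The cycle consumes ATP at several of these steps.

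With the knockdown, 22 of the 47 genes (46.8%) passed an adjusted p of 0.05 in edgeR's quasi-likelihood test, 5 of them higher and 17 lower. Over all 16562 tested genes the share was 38.9%, with 18.9% higher and 20.0% lower. The genes that rose were Syn2, Syp, Stxbp5, Napa and Sh3gl2. Those that fell were Slc17a6, Slc17a7, Syn1, Syn3, Sv2a, Sv2b, Snap25, Stx1a, Rab3b, Rph3a, Rimbp2, Unc13b, Erc2, Ppfia3, Dnm1, Snap91 and Ap2a2. Of these, Slc17a6, Sv2b, Rph3a and Erc2 fell at least 2-fold, whereas 0 members rose that much. The median log2 fold change of the 47 genes was -0.19, against -0.01 over all tested genes, and it was -0.11, -0.16 and -0.19 in the pairs of libraries numbered 1, 2 and 3. In 41 of 47 genes the change had the same sign in all 3 pairs. The same share over all tested genes was not computed, so this count cannot be called particular to the members. Leaving out shControl replicate 2 or shOpa1 replicate 2 reduced the members called higher from 5 to 3.

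**Figure D1:**
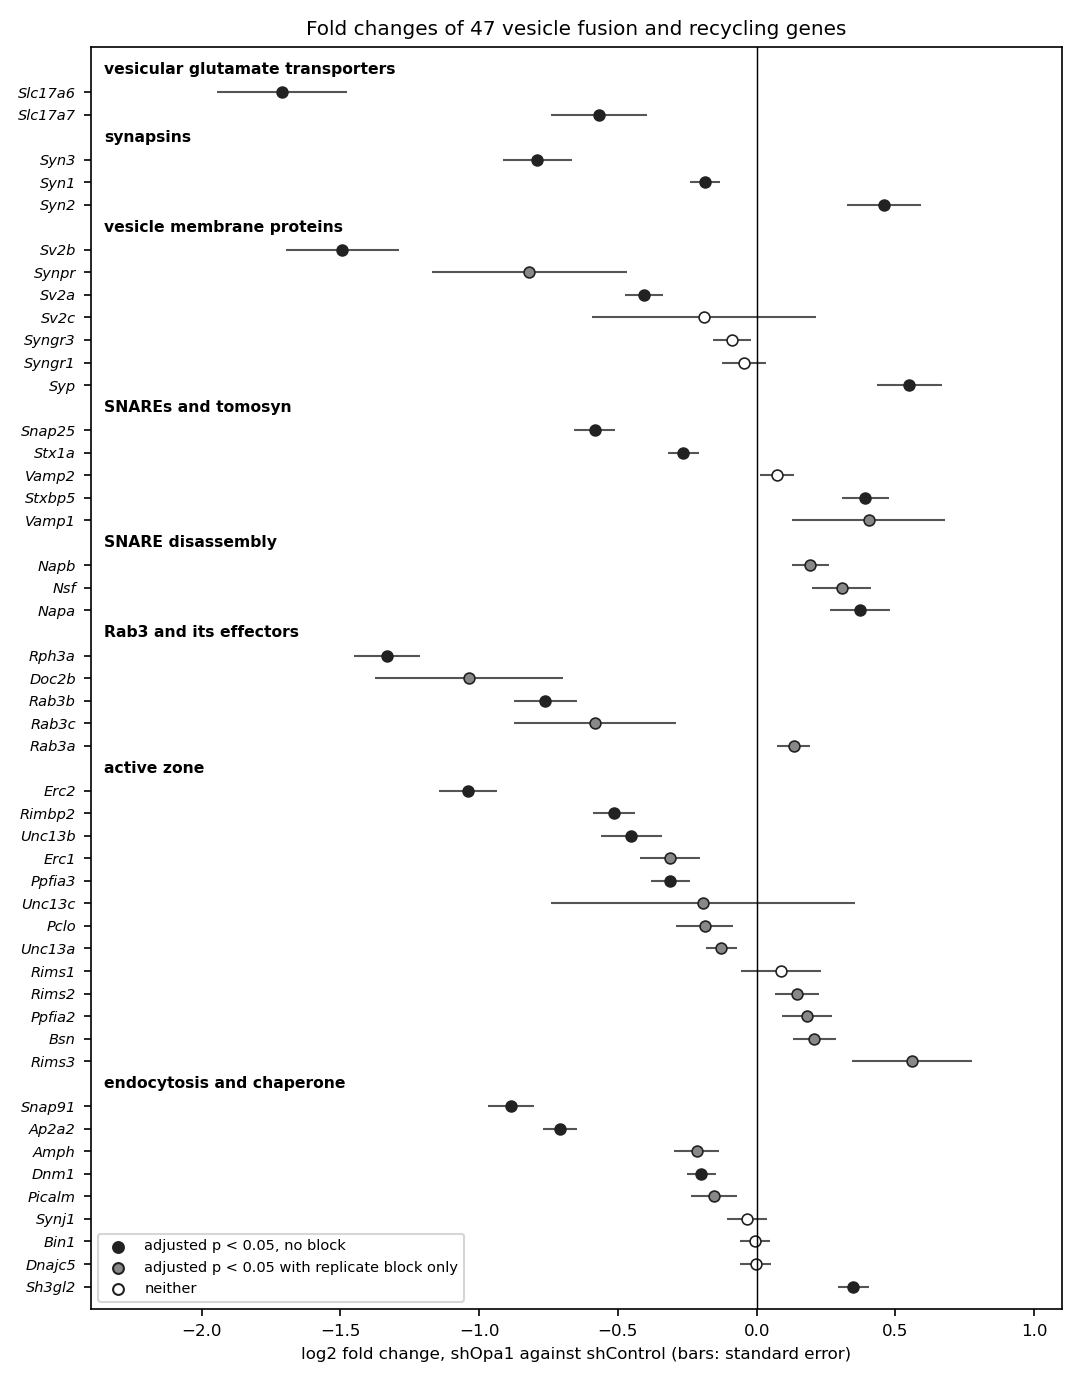
Log2 fold change (shOpa1 against shControl) of each of the 47 genes on the x axis, grouped by role on the y axis, with the standard error as a bar (n = 3 libraries per group). Black points passed an adjusted p of 0.05 in edgeR without a block. Grey points passed it in edgeR with the replicate number as a block but not without, and white points passed in neither of these fits. The values run from -1.71 for Slc17a6 to 0.56 for Rims3.

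The numbering of the replicates bore on these counts. Libraries with the same number deviated together from their group means, and with the replicate number as a block 39 members (83.0%) passed, 13 higher and 26 lower, against 59.5% of all tested genes, 28.8% higher and 30.7% lower. In edgeR, 17 members were called with this block but not without it. They are named with their blocked values in the paragraphs on their roles. Some of them also passed in other fits of all 6 libraries without a block. These were Doc2b (adjusted p = 0.00192), Rims3 (0.0178), Nsf (0.0410) and Napb (0.0443) in the DESeq2 Wald test. Without the low-count filter, Nsf (0.0372) and Erc1 (0.0413) passed in edgeR, and with DESeq2 size factors Napb did (0.0495). With replicates 1 and 2 alone, 36 members passed against a background of 50.9%. In 30 of the 47 genes (63.8%) the 3 shOpa1 libraries lay entirely above (9 genes) or below (21 genes) the 3 shControl libraries, where 51.8% of all tested genes did so, 25.8% above and 26.0% below. Of the members, 34 had an adjusted p under 0.05 in the authors' deposited table, 11 higher and 23 lower. Of all genes it tests, 40.9% did. The name of that table holds the word batch, so its fit may differ from the one without a block. All 22 genes called here without the block had the same sign there, which is no independent support because the libraries are the same.

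**Figure D2:**
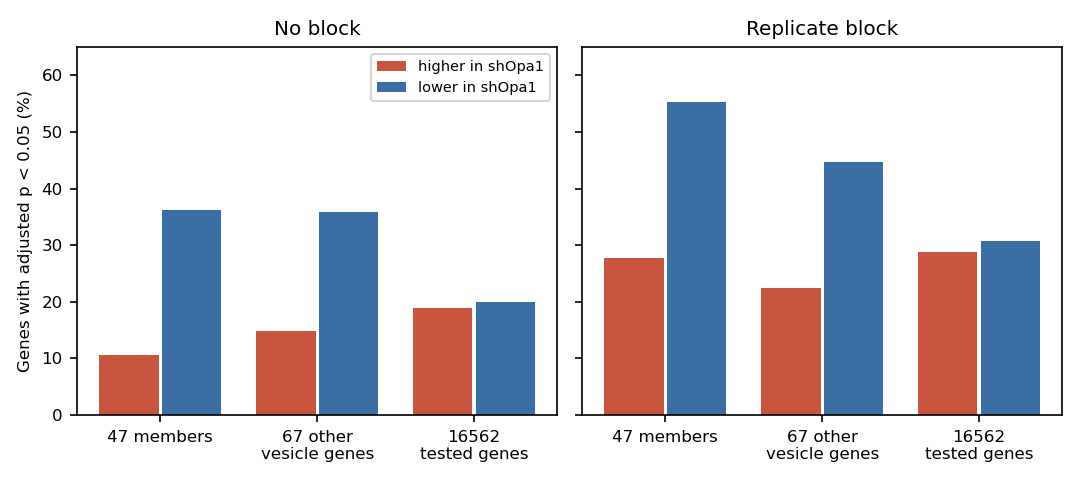
Share of genes (%, y axis, from 0) with an adjusted p under 0.05 that were higher (red) or lower (blue) in shOpa1, for the 47 members, 67 other vesicle cycle genes and all 16562 tested genes, without (left) and with (right) the replicate block. Without the block 36.2% of members were lower and 10.6% higher, and over all tested genes 20.0% and 18.9%.

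Markers of the cell types that such a culture can hold also moved with the knockdown. The 8 neuronal markers summed to 5133 to 5692 CPM in shControl and 3589 to 4219 CPM in shOpa1, with 4 called lower and 2 higher. The 8 markers of glutamatergic neurons summed to 594 to 671 CPM and 466 to 489 CPM (3 lower, 0 higher), and those of GABAergic neurons to 2553 to 3112 CPM and 1762 to 2369 CPM (4 of 8 lower, 1 higher). Single genes weighed on these sums. Mean Tubb3 went from 1598 CPM in shControl to 845 CPM in shOpa1, and mean Sst from 967 to 472 CPM. Gad1 did not pass (adjusted p = 0.161, edgeR), and Gad2 was the GABAergic marker called higher. The 10 astrocyte markers summed to 255 to 430 CPM in shControl and 129 to 192 CPM in shOpa1 (3 lower, 1 higher). Most of this sum was Slc1a2 (210 to 296 CPM in shControl and 93.1 to 118 CPM in shOpa1). Only 4 of the 10 did not overlap between the groups: Slc1a2, S100b and Gja1 were lower, and Gfap was higher. Sums for the oligodendrocyte lineage (47.1 to 75.5 and 38.4 to 54.8 CPM, 2 of 8 lower), progenitors (103 to 186 and 68.7 to 131 CPM, 3 of 8 lower) and endothelial and mural cells (7.66 to 10.7 and 5.32 to 9.14 CPM, 1 of 8 lower) overlapped between the groups. The 8 microglial markers reached only 5.90 to 8.17 CPM and 3.52 to 4.90 CPM (1 lower), most of it Aif1. No marker was at 0 in all 6 libraries, although the oligodendrocyte factor Sox10 was at 0 in 4 of them. Mitochondrial transcripts took 3.19% to 5.31% of counts in shControl and 1.59% to 2.38% in shOpa1. In bulk RNA fewer cells of a type and less RNA per cell cannot be told apart, and the part of these shifts in the members' changes was not tested.

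Sequences were read for the members at both ends of the gene. RefSeq promoters (GRCm38.p6, from 250 bases before to 50 after the start) were held for 39 of the 47 genes, 49 promoters in all, and were searched on both strands for short motifs bound by factors known from stress responses, mitochondrial biogenesis and neuronal gene control. The cyclic AMP response element TGACGTCA, which reads the same on both strands, was present in the promoters of Syn1, Napa and Sh3gl2 (6.12% of the members' promoters and 1.79% of all 32851). The NRF1 core TGCGCATGC was present for Syn1, Bsn and Stxbp5 (6.12% and 1.52%), and the left part of the REST element, TTCAGCACC, for Syn1, Ppfia3 and Unc13a (6.12% and 0.371%). The ATF4 composite TTGCATCA was found in 0 of the 49 promoters (0.895% of all). The Sp1 box GGGCGG stood in 67.3% of the members' promoters and 35.7% of all, and TATAAA in 6.12% and 13.6%. The 3 promoters with the cyclic AMP response element are shown because they belong to genes that did not change alike: Syn1 fell, and Napa and Sh3gl2 rose. Capitals mark the matches to the first 3 motifs, which in the Syn1 promoter do not overlap. A match is a description of the letters, not a bound site.
Syn1, chrX:20920869-20921168, minus strand: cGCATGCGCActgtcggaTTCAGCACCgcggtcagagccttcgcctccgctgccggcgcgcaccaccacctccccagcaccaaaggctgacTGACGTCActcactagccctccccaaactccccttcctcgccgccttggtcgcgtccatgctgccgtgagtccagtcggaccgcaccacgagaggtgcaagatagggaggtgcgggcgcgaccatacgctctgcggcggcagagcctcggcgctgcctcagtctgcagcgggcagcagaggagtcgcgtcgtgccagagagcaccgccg
Napa, chr7:16098330-16098629, plus strand: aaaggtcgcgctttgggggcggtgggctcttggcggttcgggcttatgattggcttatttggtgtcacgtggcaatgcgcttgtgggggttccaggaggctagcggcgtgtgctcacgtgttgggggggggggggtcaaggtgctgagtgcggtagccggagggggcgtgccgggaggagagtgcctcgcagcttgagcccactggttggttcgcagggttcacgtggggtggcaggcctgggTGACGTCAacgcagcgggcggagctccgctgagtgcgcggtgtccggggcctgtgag
Sh3gl2, chr4:85205206-85205505, plus strand: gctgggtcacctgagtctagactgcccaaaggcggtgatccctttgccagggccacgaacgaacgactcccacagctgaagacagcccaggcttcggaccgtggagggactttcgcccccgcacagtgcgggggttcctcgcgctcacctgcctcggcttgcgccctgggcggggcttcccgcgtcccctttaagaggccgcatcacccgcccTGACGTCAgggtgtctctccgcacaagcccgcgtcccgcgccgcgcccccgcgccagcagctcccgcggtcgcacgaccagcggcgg

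At the other end, the longest annotated 3' UTR of each gene (GENCODE M21, GRCm38) was searched for the 7-base word GAAACTA. That word was picked in an earlier search of the same fold changes. Neither the members' changes nor those of all genes are therefore independent support for it. It was present in 6 of the 47 members (12.8%) and in 1334 of 13850 tested genes with a 3' UTR (9.63%). The members with the word were Snap25, Rab3c, Rimbp2, Pclo, Unc13a and Erc2, of which Snap25, Rimbp2 and Erc2 were called lower and 0 were called higher. Their median log2 fold change was -0.55, against -0.15 for the 41 members without it, of which 14 were lower and 5 higher. Over all genes the medians were -0.42 with the word, where 50.3% were called lower, and 0.02 without it, where 18.7% were. The 14 members that fell without carrying the word include Slc17a6, Sv2b, Rph3a, Snap91 and Ap2a2. The windows below come from the last exon of each transcript, are written 5' to 3' on the strand of the gene, and have the word in capitals; Unc13a holds it at 2 places.
Snap25, chr2:136782034-136782060, plus strand: gtgtttggctGAAACTAtgtgaaatgg
Rimbp2, chr5:128757923-128757949, minus strand: tgcgtcttcaGAAACTAtattgtacat
Erc2, chr14:28478357-28478383, plus strand: aggaaccctcGAAACTAtcactgggca
Rab3c, chr13:110061498-110061524, minus strand: agctattgcaGAAACTAcagactataa
Pclo, chr5:14863439-14863459, plus strand: aataaatactGAAACTAtcaa
Unc13a, chr8:71628789-71628815, minus strand: taagagatcaGAAACTAggtaggaggg
Unc13a, chr8:71625213-71625239, minus strand: gacaggaactGAAACTAgcaacccagt

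Both vesicular glutamate transporters fell, with the larger fold change for the one typical of early and subcortical excitatory neurons. Slc17a6, which encodes VGLUT2 (chr7:51622006-51671119, plus strand), measured 106, 118 and 188 CPM in shControl replicates 1 to 3 and 39.1, 37.9 and 48.5 CPM in shOpa1 replicates 1 to 3. The groups were far apart, with the highest knockdown library below the lowest control library. Its log2 fold change was -1.71 ± 0.24, a 3.27-fold fall (adjusted p = 0.00220, edgeR), and it was the lowest of the 47. Slc17a7, which encodes VGLUT1, the main transporter of mature cortical glutamatergic terminals, measured 368, 370.4 and 483 CPM in shControl and 239, 243 and 342 CPM in shOpa1. Replicate 3 was the highest library of both groups, and no knockdown library reached a control library. The change was -0.57 ± 0.17 (adjusted p = 0.0378). Per length, Slc17a7 stood at 75.5 CPM per kilobase of exon in shControl and Slc17a6 at 25.4. The call for Slc17a7 was lost without any 1 of 5 libraries, that is all but shOpa1 replicate 3, with adjusted p between 0.0572 and 0.121 and log2 fold changes between -0.64 and -0.43.

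The synapsins, phosphoproteins that bind vesicles to each other and to the cytoskeleton, changed in opposite directions. Syn1, the most abundant per length (167 CPM per kilobase in shControl), measured 562, 532 and 559.8 CPM in shControl and 492, 482 and 480.0 CPM in shOpa1. Its 2 groups did not overlap, and the fall was small at -0.19 ± 0.05 (adjusted p = 0.0279, edgeR). Syn1 shares 0.27% of its exon bases with Araf on the opposite strand, which had 37530 counts over the 6 libraries. Syn3, the isoform known from developing neurons, measured 45.5, 46.2 and 53.7 CPM in shControl and 26.2, 24.9 and 33.0 CPM in shOpa1. All 3 knockdown libraries were lower, by -0.79 ± 0.12 (adjusted p = 0.00254), although 14.1% of its exon bases overlap the opposite-strand gene Timp3, whose reads cannot be told apart in counts made without strand. Syn2 rose, from 269 to 341 CPM in shControl to 364 to 478 CPM in shOpa1, again with no overlap (0.46 ± 0.13, adjusted p = 0.0303). The promoter printed above for Syn1 carries the cyclic AMP response element, the NRF1 core and the REST part, and that of Syn2 carries none of these. The call for Syn1 was lost without shControl replicate 1 or 3 or shOpa1 replicate 1 or 2 (adjusted p 0.0650 to 0.108). That for Syn2 was lost without shControl replicate 1 or 2 or shOpa1 replicate 2 or 3 (0.0534 to 0.108).

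**Figure D3:**
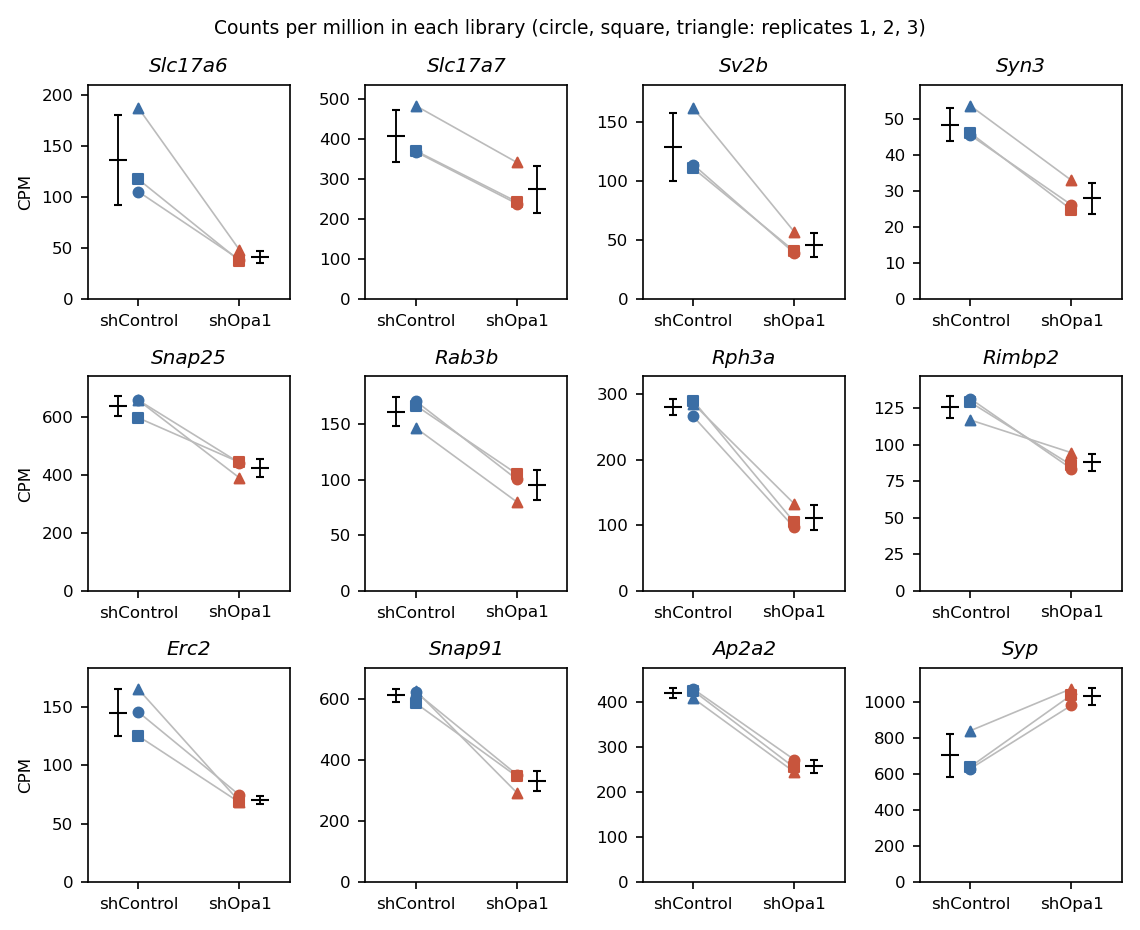
CPM (y axis, from 0) of the 12 genes with an adjusted p under 0.05 and a log2 fold change of at least 0.5 in either direction, one panel per gene, with shControl in blue and shOpa1 in red. Grey lines join libraries with the same replicate number, and black bars give the mean ± SD of 3 libraries; in 11 panels every shOpa1 library lies below every shControl library, and for Syp every one lies above.

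Among the other proteins of the vesicle membrane, Sv2b and Sv2a fell, Syp rose, and 4 of 7 genes did not pass. The share that passed was 42.9%, against 38.9% of all tested genes. SV2 proteins are transporter-like glycoproteins found on all synaptic vesicles, where they affect the pool ready for release. Sv2b measured 114, 111 and 162 CPM in shControl and 39.3, 41.0 and 57.3 CPM in shOpa1, so the highest knockdown library stood well under the lowest control library. That is a 2.81-fold fall (-1.49 ± 0.20, adjusted p = 0.00189, edgeR). Sv2a, the form expressed most widely in the brain, fell from 946 to 1057 CPM in shControl to 721 to 789 CPM in shOpa1 (-0.41 ± 0.07, adjusted p = 0.00344). Sv2c had no stable direction: it measured 44.0, 42.7 and 105 CPM in shControl and 47.4, 43.7 and 76.7 CPM in shOpa1, with the replicate 3 library highest in both groups (-0.19 ± 0.40, adjusted p = 0.744). Without shControl replicate 3 its value was 0.37.

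Syp encodes synaptophysin, a tetraspan protein that binds synaptobrevin and is among the most abundant of the vesicle. It measured 630.3, 641 and 841 CPM in shControl and 981, 1038 and 1073 CPM in shOpa1. All 3 knockdown libraries exceeded all 3 controls, of which replicate 3 was the highest. The rise was 1.46-fold (0.55 ± 0.12, adjusted p = 0.00878, edgeR), the highest value among the members that passed. Of the exon bases of Syp, 16.8% overlap Gm14703 on the opposite strand, which had 192 counts over the 6 libraries. Its relatives did not pass without the block, and of them only Synpr passed with it. Synpr, which encodes synaptoporin, measured 70.8, 66.9 and 29.7 CPM and 33.3, 38.5 and 22.9 CPM (-0.82 ± 0.35, adjusted p = 0.114, and 0.00280 with the replicate block). Replicate 3 was its lowest library in both groups, and shControl replicate 3 lay inside the range of shOpa1; without that library the value was -1.12 (adjusted p = 0.0091), and with any other library left out the adjusted p was 0.141 to 0.277. The synaptogyrin Syngr3, the highest of the 7 per length (242 CPM per kilobase in shControl), measured 488, 532 and 481 CPM and 461, 499 and 452 CPM, and the groups overlapped (-0.09 ± 0.07, adjusted p = 0.335). Syngr1 was at 558 to 662 CPM in shControl and 554 to 621 CPM in shOpa1 (-0.04 ± 0.08), and its sign changed without shControl replicate 3 (0.02).

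Both plasma membrane SNAREs among the members fell. Those of the vesicle did not pass without the block, and of them only Vamp1 passed with it. Snap25 encodes SNAP-25, which gives the fusion complex a pair of its helices, and measured 658, 597 and 658 CPM in shControl and 442, 444 and 390.1 CPM in shOpa1. The groups did not overlap, and shOpa1 replicate 3 was the lowest library (-0.58 ± 0.08, adjusted p = 0.00109, edgeR). Stx1a, which encodes syntaxin 1A, fell from 217 to 229.9 CPM in shControl to 181 to 191 CPM in shOpa1 (-0.26 ± 0.06, adjusted p = 0.00835). Vamp2, the synaptobrevin of most forebrain synapses and the highest of all 47 genes per length (374 CPM per kilobase in shControl, 393 in shOpa1), measured 1453, 1439 and 1383 CPM and 1537, 1546 and 1412 CPM. The replicate 3 library of shOpa1 fell inside the control range (0.07 ± 0.06, adjusted p = 0.396, and 0.150 with the block). Vamp1, the synaptobrevin prominent in brainstem and spinal cord, was at 21.6, 20.6 and 36.1 CPM and 28.9, 29.4 and 45.3 CPM, overlapping through the high replicate 3 of shControl (0.40 ± 0.28, adjusted p = 0.296). It passed with the replicate block (adjusted p = 0.000160) and without shControl replicate 3 (0.71, adjusted p = 0.0486). With shControl replicate 2 left out the value was 0.25 (adjusted p = 0.564), and with shOpa1 replicate 3 left out it was 0.16 (0.672). Stxbp5 encodes tomosyn, which occupies syntaxin and SNAP-25 and holds back fusion. It rose, from 80.7 to 95.9 CPM in shControl to 108 to 119 CPM in shOpa1 (0.39 ± 0.08, adjusted p = 0.00974).

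The genes that separate SNAREs after fusion were all higher in every shOpa1 library, as were 25.8% of all tested genes. In edgeR without the block 1 of 3 passed (33.3%, against 38.9% of all tested genes). Napb, the brain form of the SNAP adaptor and the highest of the 3 per length (70.9 CPM per kilobase in shControl), measured 534, 489 and 477 CPM in shControl and 578, 593 and 545 CPM in shOpa1. The lowest knockdown library stood just above the highest control library. The change was 0.19 ± 0.07 (adjusted p = 0.0543, edgeR, and 0.00292 with the replicate block), and it passed when shControl replicate 1 was left out (0.24, adjusted p = 0.0460) and when shOpa1 replicate 3 was (0.23, 0.0354), but not without any other library (adjusted p up to 0.174). Napa, the widely expressed SNAP adaptor whose promoter is printed above, rose from 148 to 173 CPM in shControl to 181 to 235 CPM in shOpa1 (0.37 ± 0.11, adjusted p = 0.0309). This call was lost without any 1 of 5 libraries, all but shOpa1 replicate 3 (adjusted p 0.0620 to 0.105). Nsf, the ATPase itself, was at 395 to 500.2 CPM and 509 to 585 CPM (0.31 ± 0.11, adjusted p = 0.0567, and 0.000102 with the block), and passed without shControl replicate 3 (0.42, adjusted p = 0.0090) but not without any other library (adjusted p up to 0.180).

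Of the Rab3 GTPases and the proteins that act with them, Rph3a and Rab3b fell. Rph3a encodes rabphilin, which binds Rab3 on the vesicle and SNAP-25 at the membrane, and measured 266, 289.7 and 285 CPM in shControl and 96.6, 105 and 133 CPM in shOpa1. Even the highest knockdown library, replicate 3, lay far below every control library. The fall was 2.52-fold (-1.33 ± 0.12, adjusted p = 0.000273, edgeR). Rab3b measured 170.5, 167 and 146 CPM and 100.2, 105 and 80.0 CPM, with the replicate 3 library lowest in both groups and no overlap (-0.76 ± 0.11, adjusted p = 0.00210). Of the exon bases of Rab3b, 9.0% overlap 8030443G20Rik on the opposite strand, which had 2 counts over the 6 libraries. Rab3a, the Rab3 of most brain synapses and the highest of the 5 genes per length (236 CPM per kilobase in shControl, 45.7 for Rab3b and 29.7 for Rab3c), had values on the other side. It measured 525, 533 and 519.9 CPM and 566, 610.2 and 554 CPM, without overlap (0.13 ± 0.06, adjusted p = 0.114, and 0.0185 with the block).

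Rab3c and Doc2b had fold changes as large as those of called members, but varied with the replicate number. Neither passed in edgeR on all 6 libraries without the block, though Doc2b passed in the DESeq2 Wald test (-1.03, adjusted p = 0.00192). Rab3c measured 437, 375 and 261 CPM in shControl and 297, 269 and 151 CPM in shOpa1. In each group replicate 3 was much the lowest, so that shControl replicate 3 sat among the knockdown libraries. The change was -0.58 ± 0.29 (adjusted p = 0.163, edgeR), and with the replicate block the adjusted p was 9.38e-06. Doc2b, a high-affinity calcium-binding protein linked to spontaneous and asynchronous release, measured 50.3, 46.3 and 89.3 CPM and 23.1, 24.7 and 42.9 CPM. Here replicate 3 was the highest library of each group, and the groups did not overlap (-1.04 ± 0.34, adjusted p = 0.0524, and 1.24e-07 with the block). Without shOpa1 replicate 3 its value was -1.38 (adjusted p = 0.0253), and without shControl replicate 3 it was -0.68 (adjusted p = 0.117). For Rab3c the value was -0.34 without shOpa1 replicate 3 (adjusted p = 0.268).

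At the active zone 4 of 13 genes (30.8%, against 38.9% of all tested genes) fell and 0 rose in edgeR without the block. The change was largest for Erc2, which encodes the ELKS family scaffold CAST (chr14:27622428-28478537, plus strand). It measured 145, 125 and 165 CPM in shControl and 74.5, 68.3 and 69.0 CPM in shOpa1, so that the knockdown libraries lay close together and far below the controls. It fell 2.05-fold (-1.04 ± 0.10, adjusted p = 0.000414, edgeR). Its relative Erc1 was at 207 to 259 CPM and 171 to 198 CPM (-0.31 ± 0.11, adjusted p = 0.0554). Of the exon bases of Erc1, 11.8% overlap Gm44317 on the opposite strand, which had 7 counts over the 6 libraries. Erc1 passed with the replicate block (adjusted p = 0.000138), and also when shOpa1 replicate 3 was left out (-0.39, 0.0334), while without shControl replicate 3 its value was -0.19 (adjusted p = 0.112). Rimbp2, which ties RIM to calcium channels, measured 131, 129 and 117 CPM and 83.4, 85.9 and 94.4 CPM. In shControl the replicate 3 library was the lowest and in shOpa1 the highest, yet the groups stayed apart (-0.51 ± 0.08, adjusted p = 0.00189). Snap25, Rimbp2 and Erc2 are the 3 called members whose GAAACTA windows are printed above.

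The Munc13 priming factors had negative fold changes of different size, and 1 of 3 passed without the block, where 38.9% of all tested genes did. Unc13a, the main Munc13 of cortical excitatory synapses and the highest active zone gene per length (40.6 CPM per kilobase in shControl), measured 503, 533 and 502 CPM in shControl and 483, 471 and 454 CPM in shOpa1. The groups were narrow and did not overlap (-0.13 ± 0.06, adjusted p = 0.116, edgeR, and 0.0232 with the replicate block). Unc13a shares 3.92% of its exon bases with Colgalt1 on the opposite strand, which had 11990 counts over the 6 libraries. Unc13b fell, from 66.6 to 79.6 CPM in shControl to 49.1 to 62.1 CPM in shOpa1 (-0.45 ± 0.11, adjusted p = 0.0154). The call was lost without shControl replicate 1 or 2 or shOpa1 replicate 2 (adjusted p 0.0559 to 0.0605). Unc13c, best known from the cerebellum and the lowest of the 47 per length (1.94 CPM per kilobase), measured 10.5, 12.6 and 28.1 CPM and 8.44, 10.1 and 26.3 CPM. Replicate 3 was more than 2 times any other library of its group, and the groups overlapped (-0.19 ± 0.55, adjusted p = 0.810). With the block it passed (adjusted p = 0.0314), and its sign turned without shControl replicate 3 (0.37) or shOpa1 replicate 1 (0.08) or 2 (0.03).

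The remaining scaffolds were split. Ppfia3, a liprin that gathers active zone proteins at new release sites, fell from 218 to 246 CPM in shControl to 179 to 194 CPM in shOpa1 (-0.31 ± 0.07, adjusted p = 0.0112, edgeR), a call lost without shOpa1 replicate 2 (adjusted p = 0.0516). Its relative Ppfia2 was at 159 to 193 and 191 to 220.0 CPM (0.18 ± 0.09, adjusted p = 0.153, and 0.0251 with the block). Ppfia2 shares 22.3% of its exon bases with Acss3 on the opposite strand, which had 22 counts over the 6 libraries. Bassoon and Piccolo, the giant scaffolds that guide vesicles to the release site, lay on opposite sides of 0. Bsn was at 0.21 ± 0.08 with no overlap between groups (284 to 328 and 341 to 384 CPM, adjusted p = 0.0726, and 0.00214 with the block). Pclo was at -0.19 ± 0.10 (222 to 266 and 190.3 to 237 CPM, adjusted p = 0.190, and 0.00357 with the block). The RIM genes, whose products join Rab3, Munc13 and calcium channels, had values above 0. Rims3, a short form without the Rab3-binding end, had the highest fold change of all 47 and measured 186, 192 and 266 CPM and 261, 279 and 410.0 CPM. Replicate 3 was the highest library in both groups, and shControl replicate 3 exceeded shOpa1 replicate 1 (0.56 ± 0.22, adjusted p = 0.0839, and 1.43e-06 with the block). Rims3 passed without shControl replicate 3 (0.74, adjusted p = 0.0386), and its value was 0.33 without shOpa1 replicate 3 (adjusted p = 0.175). Rims2 stood at 0.14 ± 0.08 (adjusted p = 0.193, and 0.0265 with the block) and Rims1 at 0.09 ± 0.14 (adjusted p = 0.666).

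Of the 9 endocytic and chaperone genes, Snap91, Ap2a2 and Dnm1 fell and Sh3gl2 rose (44.4%, against 38.9% of all tested genes). Snap91 encodes AP180, which assembles clathrin coats and retrieves synaptobrevin at nerve terminals, and measured 622, 586 and 627 CPM in shControl and 353, 347 and 293 CPM in shOpa1. The groups did not overlap, and shOpa1 replicate 3 was the lowest library (-0.89 ± 0.08, adjusted p = 0.000304, edgeR). Ap2a2, which encodes an alpha subunit of the AP-2 adaptor, measured 428, 424 and 407 CPM and 272, 254 and 244 CPM. Its groups were tight and well apart (-0.71 ± 0.06, adjusted p = 0.000227). Picalm, the widely expressed relative of Snap91, was at 159 to 184 CPM and 151 to 169.8 CPM, and the groups overlapped (-0.15 ± 0.08, adjusted p = 0.181, and 0.0254 with the block). Dnm1, the neuronal dynamin that cuts vesicles free and the highest of the 9 genes per length (141 CPM per kilobase in shControl), measured 754, 735 and 730.0 CPM and 629, 640.3 and 662 CPM. The fall was small and without overlap (-0.20 ± 0.05, adjusted p = 0.0214). It was lost without shControl replicate 1 or 2 or shOpa1 replicate 1 or 2 (adjusted p 0.0542 to 0.0915).

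Sh3gl2 encodes endophilin A1, which bends the membrane and recruits dynamin and synaptojanin, and its promoter is printed above. It rose from 162 to 175 CPM in shControl to 210.0 to 219 CPM in shOpa1 (0.35 ± 0.06, adjusted p = 0.00273, edgeR), with SDs of 6.55 and 4.33 CPM (n = 3 each), so the difference was several times the spread. Of the genes that act beside it, Dnm1 fell, as given above, and Amph, Bin1, Synj1 and Dnajc5 did not pass without the block. With the block Amph passed, and Bin1, Synj1 and Dnajc5 did not. Amph was at 244 to 270.3 and 198 to 236 CPM (-0.22 ± 0.08, adjusted p = 0.0699, and 0.00144 with the block). Bin1, a second amphiphysin, was at 224 to 237 and 226 to 237 CPM (-0.0063 ± 0.05). Synj1, the lipid phosphatase that uncoats vesicles, was at 305 to 339 and 298 to 336 CPM (-0.04 ± 0.07). Dnajc5, the cysteine string protein that keeps SNAP-25 folded, was at 694 to 717 and 679 to 728 CPM (-0.0039 ± 0.06). In these 3 genes the groups overlapped, the adjusted p was 0.730 to 0.963, and the sign of so small a value turned with single libraries left out: for Bin1 without shControl replicate 1 (0.0078) or shOpa1 replicate 2 (0.0095), for Synj1 without shOpa1 replicate 3 (0.012), and for Dnajc5 without shControl replicate 3 (0.0095) or shOpa1 replicate 1 (0.015) or 2 (0.0036).

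Ratios between relatives within a library do not depend on how libraries are scaled, and show unequal change only. In 5 of 10 pairs of relatives the log2 ratios of counts did not overlap between the groups. Ratios of other genes were not computed, so this count and the count of signs below have no background beside them. The ratio of Slc17a6 to Slc17a7 was -1.61 ± 0.22 in shControl and -2.70 ± 0.10 in shOpa1 (mean ± SD, n = 3), a difference of -1.10. That of Syn1 to Syn2 went from 0.90 ± 0.17 to 0.26 ± 0.23 (-0.64), and that of Sv2a to Sv2b from 2.99 ± 0.29 to 4.08 ± 0.26 (1.09). The differences were 0.72 for Erc1 to Erc2 and 0.33 for Unc13a to Unc13b. The 5 pairs gave the smallest p that an exact two-sided permutation test allows with 3 against 3 libraries, 0.10, which is 0.20 after Benjamini-Hochberg adjustment over the 10 pairs, so no pair could pass. The other pairs overlapped: Rab3a to Rab3c (0.74), Bsn to Pclo (0.40), Vamp1 to Vamp2 (0.35), Napa to Napb (0.17) and Rims1 to Rims2 (-0.07). Between libraries with the same replicate number, the difference had the same sign in all 3 for 9 of the 10 pairs, Rims1 to Rims2 being the exception. For numbers 1, 2 and 3 it was 0.67, 0.67 and 0.88 for Rab3a to Rab3c, 0.39, 0.36 and 0.45 for Bsn to Pclo, 0.34, 0.41 and 0.30 for Vamp1 to Vamp2, and 0.25, 0.16 and 0.10 for Napa to Napb. An exact two-sided permutation test within 3 such pairs cannot go below p = 0.25. The difference for Rims1 to Rims2 turned to 0.13 without shOpa1 replicate 3, and the ratio of Vamp1 to Vamp2 ranged from 0.09 to 0.63 with 1 library left out.

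**Figure D4:**
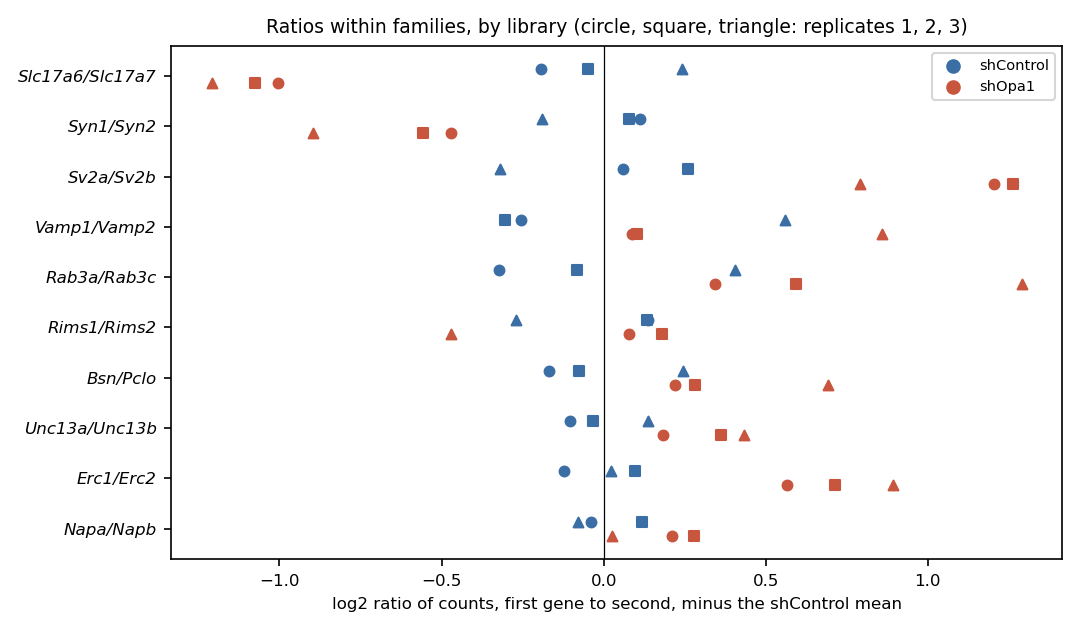
Log2 ratio of the counts of 2 relatives in each library (x axis), minus the mean of the 3 shControl libraries, for the 10 pairs on the y axis, with shControl in blue, shOpa1 in red and the symbol giving the replicate number. Red and blue symbols are separate for Slc17a6/Slc17a7, Syn1/Syn2, Sv2a/Sv2b, Unc13a/Unc13b and Erc1/Erc2 and overlap for the other 5 pairs.

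Replicate 3 differed from replicates 1 and 2 in both groups, with the same sign in both for 37 of the 47 members and opposite signs for 10. The log2 ratio of replicate 3 to the mean of replicates 1 and 2 correlated at r = 0.886 between shControl and shOpa1 over the 47 genes, which share libraries, scaling and depth. The values of the 2 groups differed by a median of 0.11 and by up to 0.56. The ratio exceeded 0.5 in size with 1 sign in both groups for 7 genes. Replicate 3 was higher for Unc13c (1.28 and 1.50), Sv2c (1.27 and 0.75), Doc2b (0.89 and 0.84), Vamp1 (0.77 and 0.64) and Sv2b (0.53 and 0.51), in shControl and shOpa1 respectively. It was lower for Synpr (-1.21 and -0.65) and Rab3c (-0.64 and -0.91). For Unc13c and Sv2c this spread was far larger than the difference between shControl and shOpa1, and for Sv2b it was smaller. The labels do not call replicate 3 a batch. Across the 47 genes the fold change had a correlation of 0.03 with exon length and 0.09 with level per length, given as descriptions.

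**Figure D5:**
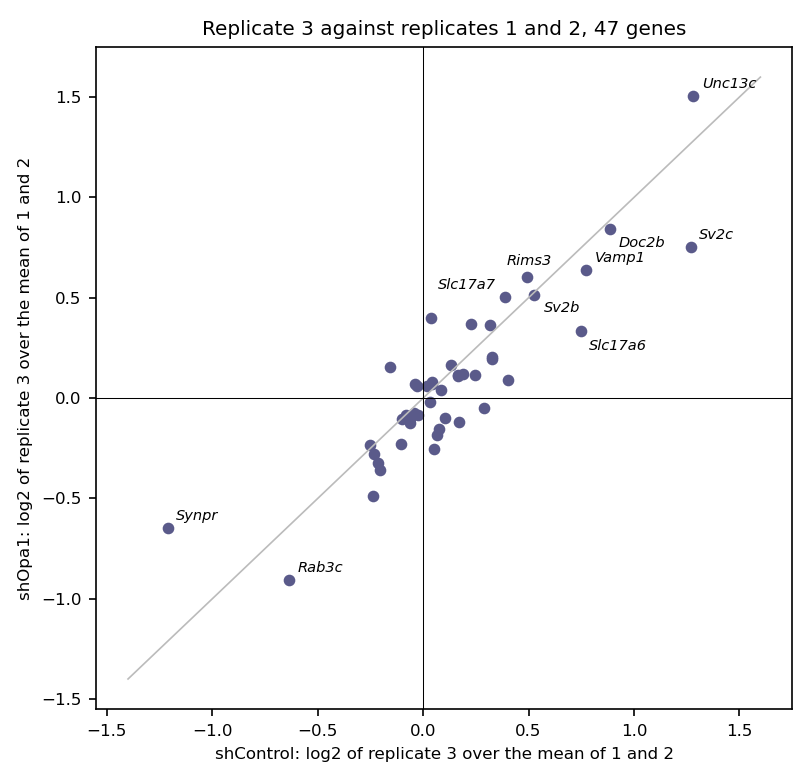
Log2 ratio of replicate 3 to the mean of replicates 1 and 2 in shControl (x axis) and in shOpa1 (y axis), one point per gene for the 47 genes, with the line of equal values in grey and genes beyond 0.5 on either axis named. The values of the 2 groups rise together (r = 0.886), from Synpr and Rab3c at the lower left to Unc13c at the upper right.

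A wider list of 69 other vesicle cycle genes gave 67 that were matched and tested. Of these 34 passed, 10 higher and 24 lower (50.7%, against 38.9% of all tested genes), and the median log2 fold change was -0.09. By the rule for naming genes, those with the smallest p of each group are given. Among 10 further vesicle proteins, 5 fell and 1 rose (60.0%). Slc32a1, the vesicular GABA transporter, which is also on the list of GABAergic markers (-0.55 ± 0.08, adjusted p = 0.00192, edgeR), and Slc17a8, VGLUT3 (-0.87 ± 0.15, 0.00409), were lower. The membrane protein Scamp5 was higher (0.40 ± 0.06, 0.00230). All 3 vesicular glutamate transporters and the GABA transporter were therefore lower.

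Of 21 further SNARE and priming genes, 5 fell and 2 rose, a share of 33.3% that is below the 38.9% of all tested genes. Snap47, a SNAP-25 relative, measured 415, 397 and 405 CPM in shControl and 142, 140.3 and 116 CPM in shOpa1 (-1.61 ± 0.09, adjusted p = 4.42e-05, edgeR). The 3 libraries of each group lay close together, and the groups were far apart. Rab3d (-0.82 ± 0.08, adjusted p = 0.000304) and Stxbp5l, the second tomosyn (-0.96 ± 0.11, 0.000671), also fell, the latter against the rise of Stxbp5. Napg, the gamma form of the SNAP adaptors, rose like Napa (0.49 ± 0.05, adjusted p = 0.000626).

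Of 11 further active zone genes, 5 fell and 1 rose (54.5%, against 38.9% of all tested genes). Apba1, the Mint1 adaptor (-0.74 ± 0.06, adjusted p = 0.000153, edgeR), the liprins Ppfia4 (-0.79 ± 0.11, 0.00130) and Ppfibp1 (-0.34 ± 0.06, 0.00439) were lower. The broadly expressed liprin Ppfia1 was higher (0.53 ± 0.07, adjusted p = 0.00130). Of 25 further endocytic genes, 9 fell and 6 rose (60.0%, against the same 38.9%). Dnm3, the third dynamin, measured 137, 127 and 173 CPM in shControl and 45.3, 44.9 and 48.7 CPM in shOpa1 (-1.65 ± 0.12, adjusted p = 0.000105), beside the -0.20 of Dnm1. Pacsin1, the neuronal syndapin that bends membranes, measured 198, 192 and 228 CPM and 72.1, 64.3 and 77.8 CPM (-1.53 ± 0.10, 7.46e-05). In both genes every knockdown library lay far below every control library. Rab5b, an early endosome GTPase (-0.73 ± 0.08, 0.000507), and Ap2b1, the beta subunit of AP-2 (-0.50 ± 0.06, 0.000715), fell as Ap2a2 did.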

How the data were processed

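The raw counts per gene were made by the authors with featureCounts 1.6.0 on Ensembl release 99 gene models of GRCm38, with no strand option, per the file headers. HISAT2, DESeq2 and the build mm10 are named in the submitters' processing notes. The authors' deposited table of their comparison gives a log2 fold change, its standard error and an adjusted p-value per gene. No column of values lacked a sample (0 unmatched).

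The 47 members, the other gene lists and the tests were chosen with earlier results of these data known. Of 69 other vesicle cycle genes, Tprg1l and Vamp7 are not analysed here. The counts were tested with edgeR 4.0.16 (R 4.3.3): TMM scaling, the default low-count filter, the robust quasi-likelihood test of shOpa1 against shControl over all 16562 genes, and Benjamini-Hochberg adjustment with calls at 0.05. CPM are counts scaled to each library's total over the 16562 tested genes, after its TMM factor. Whole libraries held 24676709 to 32961580 counts. Replicate libraries differed by more than sampling noise (chi-square per degree of freedom 6.69 to 34.1), so none was counted as a repeat. Members with an adjusted p under 0.05 and a log2 fold change of at least 0.5 in size, and the member with the highest level per length in each role, have their value given in every library. Of the other vesicle cycle genes, the 4 with the smallest p per group are named, except 1 that is not reported here.

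Replicate numbers are shared by both groups. Between libraries with the same number, log2 CPM deviations from the group mean had correlations of 0.499, 0.515 and 0.649, so the numbers were taken to pair the libraries, a pairing read from the data and not stated in the labels. On the second principal component (26.9% of variance) both replicate 3 libraries stood apart from the other 4. Alternatives were the replicate block, replicate 3 as a second batch, replicates 1 and 2 only, DESeq2 size factors, the Wald test of DESeq2 1.42.0, no low-count filter, and each library left out in turn. The edgeR fits were tested on simulated data with 200 genes changed 2-fold. Without the block 145 of these were recovered (72.5%) and 21 unchanged genes were called. With the block the counts were 141 (70.5%) and 22. The simulation held no replicate effect, so it cannot show how the block handles one. Counting error is small at these depths, and the spread between libraries sets the precision.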

Additional observations from a re-analysis of the deposited data

How the results depend on the processing

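With 3 libraries per group, changes in genes that vary between libraries can be missed. Of the 22 called members, 15 kept their call in all 12 alternatives, 7 lost it in at least 1 (Slc17a7, Syn1, Syn2, Napa, Unc13b, Ppfia3 and Dnm1), and 0 changed sign. Why the counts differ between alternatives was not tested. With the replicate block, 39 members were called, 13 higher and 26 lower, and 9851 of all genes; the block ended no call made without it. With replicate 3 as a second batch 36 members were called, 12 of them higher. Replicates 1 and 2 only gave 36, 13 of them higher, where 50.9% of all tested genes were called. The DESeq2 Wald test gave 8 members higher. The shares of all tested genes in the second-batch and Wald fits are not given here. Their counts therefore cannot be called particular to the members. With 1 library left out (an arm of 2), the members called ranged from 15 to 24, those called higher from 3 to 7, those called lower from 12 to 19, and the median log2 fold change of the members from -0.22 to -0.13. All genes called ranged from 4589 to 6626, and the other vesicle cycle genes called from 30 to 36.

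The 6 members whose sign changed were all uncalled. With 1 library left out, log2 fold changes ranged from -0.11 to 0.021 for Syngr1, -0.49 to 0.37 for Sv2c, -0.89 to 0.37 for Unc13c, -0.035 to 0.0095 for Bin1, -0.090 to 0.012 for Synj1 and -0.034 to 0.015 for Dnajc5. Replicates 1 and 2 only gave 0.078 for Sv2c and 0.045 for Synj1. The DESeq2 Wald test gave 0.0033 for Bin1 and 0.0057 for Dnajc5, and no low-count filter gave 1.49e-05 for Dnajc5.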
